A study of Mus musculus with 9 samples.

Results

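The genes described here are the receptors for GABA and glycine, the inhibitory transmitters of the retina, with 3 proteins of their postsynaptic scaffold. They were taken by symbol from the deposited gene tables, 26 genes of the 25239 listed: 13 GABA-A subunits, 3 Gabrr subunits, 2 GABA-B subunits, 5 glycine receptor subunits, and Gphn, Nlgn2 and Lhfpl4. RNA of the whole retina was sequenced in 9 libraries from C57BL/6J mice at P42, each from 1 pair of retinas. Mice carried no knock-in allele (+/+), 1 (Cre/+) or 2 (Cre/Cre) alleles of Rbpms-CreERT2, and 3 libraries were made from each genotype. In this allele a P2A-CreERT2 cassette follows the last codon of endogenous Rbpms, so the inducible Cre recombinase is made where Rbpms is expressed, in retinal ganglion cells (RGCs). No tamoxifen or other agent is named for these libraries. The question was whether the knock-in alleles changed the retinal transcriptome.

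GABA-A receptors are chloride channels built from subunits, usually of the alpha and beta classes with a gamma or delta subunit. Subunits of the Gabrr class form the slowly desensitising GABA channels of bipolar cell terminals, GABA-B receptors are G protein-coupled and work as a dimer of both subunits, and glycine receptors are chloride channels of alpha subunits with the beta subunit. Amacrine and horizontal cells release these transmitters onto photoreceptors, bipolar cells, other amacrine cells and RGCs. Since whole retinas were measured, fewer cells of a type and less RNA per cell cannot be told apart from these libraries. By cell counts, the paper reports no significant difference between genotypes in RGCs stained for RBPMS or POU4F1. It reports the same for the cells in each nuclear layer of the retina.

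The 3 receptor genes with the highest levels, Gabbr1, Gabrr1 and Gabrr2, and Nlgn2, the member with the smallest unadjusted p against +/+ in Cre/Cre, are shown by the sequence upstream of their start site. Gabrr2 and Gabrr1 are neighbours on chromosome 4 in the same orientation, 36.7 kb apart. Each run is the longest stretch free of annotated exons within the 250 bases before the start site. It is written 5′ to 3′ toward the gene and comes from the RefSeq promoter table of GRCm38.p6. Capitals mark CG dinucleotides and, in Gabrr2, the single match to TAATCC, read on the other strand as GGATTA. The positions are chr17:37045716-37045965 on the forward strand for Gabbr1, chr4:33132306-33132520 on the forward strand for Gabrr1, chr4:33062862-33062998 on the forward strand for Gabrr2, and chr11:69837785-69838034 on the reverse strand for Nlgn2.
Gabbr1: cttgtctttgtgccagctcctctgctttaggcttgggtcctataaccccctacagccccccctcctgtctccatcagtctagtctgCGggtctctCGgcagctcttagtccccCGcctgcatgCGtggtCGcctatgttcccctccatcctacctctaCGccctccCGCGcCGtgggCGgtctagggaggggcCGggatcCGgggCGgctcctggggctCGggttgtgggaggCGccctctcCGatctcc
Gabrr1: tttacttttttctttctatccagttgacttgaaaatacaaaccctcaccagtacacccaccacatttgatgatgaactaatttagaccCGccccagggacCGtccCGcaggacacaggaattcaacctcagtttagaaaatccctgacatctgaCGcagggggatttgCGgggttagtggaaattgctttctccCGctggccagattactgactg
Gabrr2: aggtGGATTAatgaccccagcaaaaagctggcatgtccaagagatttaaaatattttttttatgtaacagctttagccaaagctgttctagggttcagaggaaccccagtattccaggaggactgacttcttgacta
Nlgn2: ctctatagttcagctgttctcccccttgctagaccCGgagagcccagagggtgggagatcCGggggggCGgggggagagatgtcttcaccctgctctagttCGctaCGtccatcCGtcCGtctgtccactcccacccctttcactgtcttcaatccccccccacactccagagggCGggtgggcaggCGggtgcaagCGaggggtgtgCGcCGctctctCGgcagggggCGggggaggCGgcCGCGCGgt
These stretches held 16 CG dinucleotides in Gabbr1, 6 in Gabrr1, 0 in Gabrr2 and 18 in Nlgn2. Their lengths were unequal, 250, 215, 137 and 250 bases in that order. Over whole windows of 300 bases (250 before and 50 from the start site), the table held 28 windows for 24 of the members and none for Glra1 and Gabrd. The Gabrr genes held 9 CG dinucleotides in Gabrr1, 2 in Gabrr2 and 3 in Gabrr3, beside a median of 7 over all 32851 windows. The scaffold genes had 42 in Gphn, 27 in Lhfpl4 and 26 in Nlgn2, and the GABA-B genes 18 in Gabbr1 and 46 in Gabbr2. The motif TAATCC, which retinal homeodomain factors such as CRX recognise, was searched on both strands and matched in 2 members, Gabra2 and Gabrr2, and in 7.06% of all windows. A match describes the letters in the window and no binding was measured.

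Depth was similar between libraries, with 4.05 to 4.65 aligned gigabases implied by the deposited coverage and FPKM. Levels are TPM, transcript abundance per gene length scaled to the same total in each library. Rbpms itself was at 38.4 to 43.4 TPM in +/+, 31.3 to 33.1 in Cre/+ and 19.1 to 24.2 in Cre/Cre. Its log2 fold change against +/+ was -0.96 for Cre/Cre (adjusted p = 0.000581 by limma) and -0.36 for Cre/+ (adjusted p = 0.355). The Cre/Cre mean was 50.4% of the +/+ mean, a change of slightly less than 2-fold. The paper, whose calls also required a change above 2-fold, counts Rbpms among RGC markers without a significant difference. It also reports a similar signal intensity of RBPMS staining in RGCs of all genotypes. Of the libraries, Cre/Cre replicate 1 stood apart, with 9.21% of its TPM in the ribosomal RNA gene Rn45s against at most 0.336% elsewhere, and a library scale (median ratio to the other libraries over genes) of 0.918 against 0.985 to 1.03. Xist was at most 3.16 TPM in Cre/+ replicate 3 and Cre/Cre replicates 1 and 3 and at least 515.9 in the other libraries. This split was unequal over genotypes and may follow the sex of the mice, which the labels do not give. An effect of the split cannot be fully told apart from one of genotype. Markers of each retinal cell class were detected in each library. The 6 ganglion cell markers, Rbpms among them, summed to 754.4 to 913.1 TPM in Cre/Cre, below 991.6 to 1026 in Cre/+ and 1023 to 1059 in +/+, and horizontal cell markers to 229.5 to 235.5 in Cre/Cre and 232.5 to 237.0 in Cre/+, below 240.3 to 250.9 in +/+. The part of these cell type markers in the results below was not tested. Lens markers summed to 905.5 TPM in Cre/Cre replicate 2 and to 11.1 to 203.1 elsewhere, and blood markers to 92.5 to 104.7 in Cre/+, 150.5 to 181.7 in +/+ and 184.7 to 300.5 in Cre/Cre.

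The order of levels was led by receptor subunits other than those of the GABA-A class. Gabbr1, the GABA-B subunit that binds the transmitter, had the highest mean TPM of the members, 156.9 ± 9.79 (SD, n = 9), above 92.6% of the genes tested. Gabrr1 followed with 127.8 ± 12.3 and Gabrr2 with 112.4 ± 15.3. In each of the 9 libraries Gabbr1 was above Gabrr1 and Gabrr1 above Gabrr2, although their ranges overlapped between libraries. Together the 3 Gabrr subunits summed to 219.7 to 308.3 TPM, 1.74 to 2.11 times the sum of the 13 listed GABA-A subunits in the same library. The GABA-A list does not hold each subunit of that class, so the ratio is to the listed subunits.

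The scaffold genes came next. Lhfpl4, a membrane protein that GABA-A receptors need to cluster at synapses, had a mean of 96.3 ± 3.91 TPM (SD, n = 9) and Nlgn2, the adhesion molecule neuroligin 2 of inhibitory synapses, 94.9 ± 6.31. These neighbours did not differ beyond their spread, with Lhfpl4 above Nlgn2 in 6 of 9 libraries. Glrb, the glycine receptor subunit that binds gephyrin, was at 78.4 ± 8.37 and Gphn, which encodes gephyrin, at 65.9 ± 4.26. Glrb was above Gphn in 9 of 9 libraries.

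A middle group ran from Gabra3 at 39.6 ± 4.47 TPM (SD, n = 9) through Gabbr2, Gabrb2, Gabrr3, Glra1, Glra2, Glra3 and Gabrd to Gabra2 at 20.5 ± 4.04. Neighbours in that order overlapped in range, and Glra3 and Gabrd changed places between libraries (Glra3 above Gabrd in 4 of 9). Gabra3 supplied 54.5% to 60.0% of the TPM of the listed alpha subunits and Gabra2 26.5% to 32.7%. Gabra4 (7.64), Gabrg1 (6.61), Gabrg3 (6.12), Gabrb1 (5.24) and Glra4 (4.27) formed a lower group of mean TPM, and Gabra5, at 1.49, was the lowest of the members tested. Of the 25 neighbouring pairs in the whole order, 11 stood in the same order in all 9 libraries and 5 had ranges that did not overlap.

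The level of Glra2, an alpha subunit of the glycine receptor, depended on which deposited column was read. Its TPM was 20.9 to 28.6, beside 21.0 to 31.4 for Glra1. Its deposited coverage, the mean depth of reads over the gene, was only 1.87 to 2.90, beside 25.3 to 37.4 for Glra1. Divided by FPKM, that coverage was 0.0818 of the value common to the library in each of the 9 libraries, and 13 members sat within 1% of that common value. Read from the coverage, Glra2 would lie at 1.71 to 2.34 on the TPM scale, below Glra4. Its place among the members and any sum that includes it are therefore uncertain, while a factor that is the same in each library leaves its ratios between genotypes unaffected.

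Of the 26 members, 4 fell below the filter of a mean TPM of 1 and were not tested, which leaves 22. Gabra6, known from cerebellar granule cells, was listed at 0 in all 9 libraries, and its neighbour Gabrb2, 98.6 kb away on chromosome 11, was at 32.8 TPM. Gabrp was listed at 0 in 8 libraries and at 0.0201 in Cre/Cre replicate 2. Gabrq was at 0.572 to 0.922 TPM, and Gabre at 0 in Cre/+ replicate 3 and 0.0759 to 0.570 in the other libraries. On the X chromosome Gabre and Gabrq flank Gabra3, at distances of 158 and 168 kb, with mean levels of 0.187 and 0.718 TPM beside 39.6. On chromosome 5, Gabrg1, Gabra2, Gabra4 and Gabrb1 lie in a row with mean levels of 6.61, 20.5, 7.64 and 5.24. The 5′ ends of Gabra4 (reverse strand) and Gabrb1 (forward strand) overlap by 388 bases, and the strand setting of the quantification is not given in the sources used here, so reads in that overlap may be split between them.

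**Figure D1:**
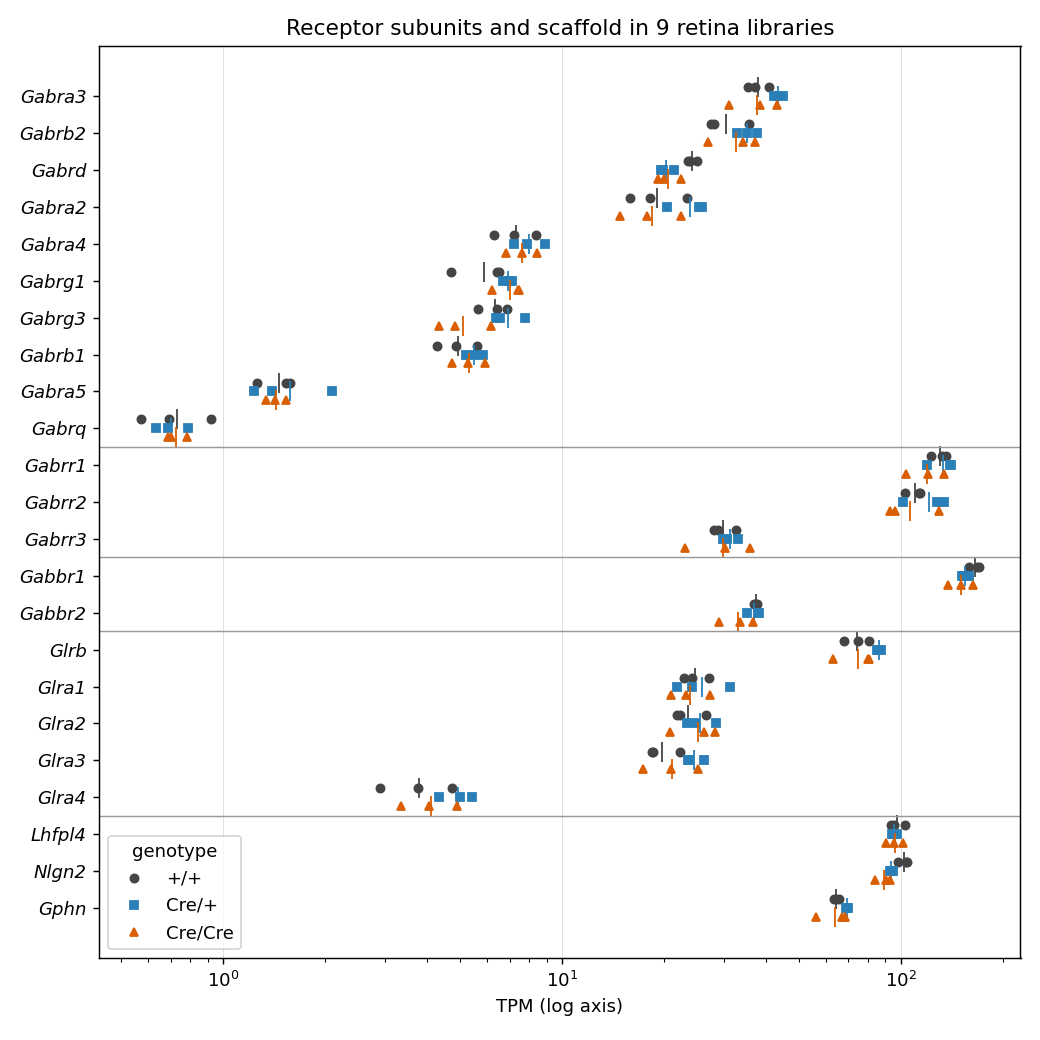
TPM of the members on a log axis, grouped as GABA-A, Gabrr, GABA-B, glycine receptor and scaffold genes. Each symbol is 1 library (circles +/+, squares Cre/+, triangles Cre/Cre) and each vertical tick a genotype mean. Differences between genotypes are small beside those between genes, which run from 0.572 TPM (Gabrq) to 169.7 TPM (Gabbr1). Gabre, Gabrp and Gabra6, which had values of 0 or near 0, are not drawn, and the level of Glra2 is uncertain.

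Comparison of Cre/+ with +/+ retinas asked whether a single knock-in allele changed these genes. With limma, 0 of 22 members passed an adjusted p of 0.05 (0.00658% of all genes tested did) and the smallest adjusted p was 0.405. A 2-fold change was seen in 0 members and in 0.428% of all genes tested. The 95% intervals of the log2 fold changes, on the log2(TPM + 1) scale and not adjusted for their number, reached from -0.44 (Gabrd) to 0.70 (Glra4), so that changes of 2-fold lay outside each of them. Unadjusted p was under 0.05 for 2 members with a higher level, Glra3 and Glrb (9.09%, beside 4.9% of all genes tested), and for 1 with a lower level, Gabrd (4.55%, beside 5.82%).

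Glra3, a glycine receptor alpha subunit (chr8:55940418-56130070), was at 22.3, 18.5 and 18.5 TPM in +/+ and at 23.6, 23.6 and 26.2 in Cre/+. The Cre/+ libraries were all above the +/+ libraries, by the smallest margin from +/+ replicate 1. Its log2 fold change was 0.30 ± 0.12 (SE), with an unadjusted p of 0.0284 and an adjusted p of 0.422 by limma. In Cre/Cre it was 17.3, 20.9 and 25.2 TPM, across the range of both other genotypes.

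Glrb (chr3:80843599-80913660) was at 80.5, 74.6 and 68.0 TPM in +/+, 87.7, 85.1 and 85.7 in Cre/+ and 62.9, 80.3 and 80.6 in Cre/Cre. The 3 Cre/+ libraries were close together and above each of the others. The log2 fold change of Cre/+ against +/+ was 0.21 ± 0.096 (SE), with an unadjusted p of 0.0425 and an adjusted p of 0.452 by limma. Among the other glycine receptor alpha subunits, Glra4 had the largest log2 fold change, 0.32 ± 0.18 (SE, unadjusted p = 0.0988), from 2.89, 3.75 and 4.73 TPM in +/+ and 4.35, 5.42 and 4.98 in Cre/+. Its groups overlapped, and +/+ replicate 1 was the lowest library, without which the log2 fold change was 0.18. Without +/+ replicate 3 that of Glra4 was 0.46.

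Gabrd, the delta subunit of extrasynaptic GABA-A receptors (chr4:155384979-155398069), was at 23.5, 23.8 and 25.1 TPM in +/+, 19.5, 21.4 and 19.9 in Cre/+ and 19.2, 22.4 and 20.0 in Cre/Cre. Every +/+ library was above every library of the knock-in genotypes. The log2 fold change in Cre/+ was -0.24 ± 0.094 (SE), with an unadjusted p of 0.0208 and an adjusted p of 0.405 by limma. Gabra2, an alpha subunit of synaptic receptors (chr5:70958392-71095849), was at 23.3, 18.1 and 15.9 TPM in +/+ and 20.5, 25.4 and 25.9 in Cre/+, with overlapping groups and a log2 fold change of 0.32 ± 0.16 (SE, unadjusted p = 0.0714). Without +/+ replicate 3 it was 0.20, and without +/+ replicate 1 it was 0.46.

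Over the list, 5 members had all Cre/+ libraries above all +/+ libraries (Gabra3, Gabrg1, Glra3, Glrb and Gphn), or 22.7%, beside 11.9% of all genes tested. In 3 members (Gabrd, Gabbr1 and Nlgn2), or 13.6% beside 10.3%, they were all below. Gphn had the tightest group, with 69.2, 69.0 and 69.7 TPM in Cre/+ and 63.4, 64.4 and 65.9 in +/+. The median log2 fold change of the 22 members was 0.11, beside 0.00 for all genes tested, and 17 of 22 were above 0, beside 50.4% of all genes. The median was 0.05, with 15 of 22 above 0, without Cre/+ replicate 3 and 0.07 without +/+ replicate 2.

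**Figure D2:**
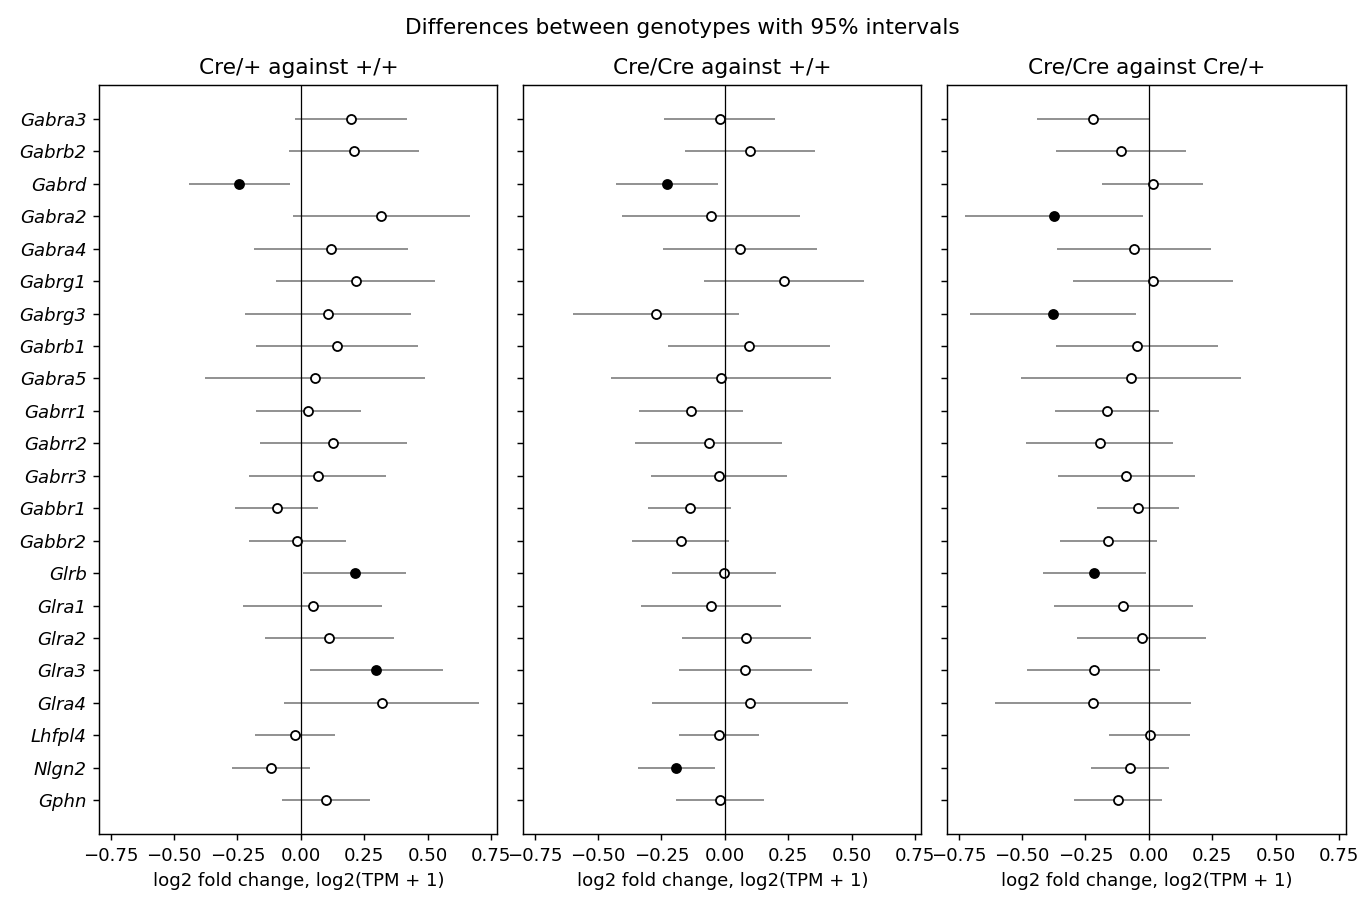
Log2 fold changes of the 22 members tested (points) with 95% intervals (lines) in the 3 comparisons of genotypes, on the log2(TPM + 1) scale. Filled points have an unadjusted p under 0.05, 3, 2 and 3 genes from left to right, and none passed the adjusted threshold. Most points lie right of 0 in Cre/+ against +/+ (17 of 22) and left of 0 in Cre/Cre against Cre/+ (19 of 22).

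For Cre/Cre retinas, which carry the allele on both chromosomes, limma again gave 0 of 22 members past an adjusted p of 0.05 (0.00658% of all genes tested), with a smallest adjusted p of 0.655 and 0 members with a 2-fold change (0.559% of all genes). Intervals of the log2 fold changes reached from -0.60 (Gabrg3) to 0.55 (Gabrg1). Unadjusted p was under 0.05 for 2 members, both with a lower level (beside 5.39% of all genes tested), and for 0 members with a higher level (beside 1.58%).

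Nlgn2 (chr11:69823123-69837784) was at 104.4, 97.8 and 103.2 TPM in +/+, 93.7, 94.6 and 93.1 in Cre/+ and 83.8, 90.5 and 93.2 in Cre/Cre. Every +/+ library was above every library of the knock-in genotypes, and Cre/Cre replicate 1 was the lowest. The log2 fold change of Cre/Cre against +/+ was -0.19 ± 0.072 (SE), with an unadjusted p of 0.0178 and an adjusted p of 0.655 by limma. Without Cre/Cre replicate 1 it was -0.15, and with Xist as a covariate -0.17 (unadjusted p = 0.0855 by limma). In Cre/+ the log2 fold change without that covariate was -0.12 ± 0.072 (SE, unadjusted p = 0.125).

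Gabrd had a log2 fold change of -0.23 ± 0.094 (SE) in Cre/Cre, with an unadjusted p of 0.0288 and an adjusted p of 0.664 by limma. This was close to its difference in Cre/+, and both comparisons share the +/+ libraries. Without Cre/Cre replicate 1 the log2 fold change of Gabrd in Cre/Cre was -0.18. With Xist as a covariate it was -0.15 in Cre/Cre (unadjusted p = 0.211 by limma) and -0.21 in Cre/+ (unadjusted p = 0.0580). The listed gamma subunits of GABA-A receptors, Gabrg3 and Gabrg1, had the largest other log2 fold changes, in opposite directions. Gabrg3 (chr7:56716463-57387215) was at 6.90, 5.67 and 6.44 TPM in +/+ and 4.34, 4.82 and 6.17 in Cre/Cre, a log2 fold change of -0.27 ± 0.15 (SE, unadjusted p = 0.0982). Gabrg1 (chr5:70751047-70842617) was at 6.50, 6.42 and 4.70 TPM in +/+ and 6.23, 7.40 and 7.49 in Cre/Cre, a log2 fold change of 0.23 ± 0.15 (SE, unadjusted p = 0.134). In both genes the groups overlapped, and the log2 fold change was -0.18 for Gabrg3 without Cre/Cre replicate 1 and 0.10 for Gabrg1 without +/+ replicate 3. On leaving out other libraries it reached -0.39 for Gabrg3 and 0.31 for Gabrg1. After each library was divided by its median ratio, all Cre/Cre libraries of Gabrg1 were above all +/+ libraries.

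In 3 members (Gabrd, Gabbr2 and Nlgn2), or 13.6%, all Cre/Cre libraries were below all +/+ libraries, beside 8.05% of all genes tested, and in 0 members above, beside 2.7%. With median-ratio scaling 4 members were below (18.2%, beside 7.2% of all genes tested) and 1 above (4.55%, beside 6.34%). Gabbr2, the partner of Gabbr1 that couples to G proteins, was at 36.9, 37.3 and 37.7 TPM in +/+ and 29.1, 33.6 and 36.6 in Cre/Cre. The median log2 fold change of the members was -0.02, equal to that of all genes tested (-0.02), with 7 of 22 above 0 beside 42.3% of all genes. These signs depended on the scaling. After each library was divided by its median ratio, 13 members were above 0 and 9 below, and the median was 0.01 beside 0.00 for all genes. On the deposited scale it was 0.08 without Cre/Cre replicate 1, 0.02 without +/+ replicate 1, -0.04 without +/+ replicate 2 or Cre/Cre replicate 2, -0.07 without +/+ replicate 3 and -0.09 without Cre/Cre replicate 3.

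Cre/Cre replicate 1 was the lowest of the 9 libraries in 16 of the 22 members, and the median deviation of the members from their own means was -0.24 on the log2 scale in that library. The same library had the high share of Rn45s and the low library scale given above, and the summed bipolar cell markers were 531.9 TPM in it against 649.4 to 745.2 elsewhere. Cre/+ replicate 3 was the highest in 12 members, with a median deviation of 0.14. Values without Cre/Cre replicate 1 or Cre/+ replicate 3 are given beside some of the results they move. Without Cre/+ replicate 3, the log2 fold changes in Cre/+ against +/+ were 0.25 for Glra3, 0.22 for Glrb and -0.23 for Gabrd. Their unadjusted p by limma was then 0.0982, 0.0754 and 0.0580. Within genotypes, the median coefficient of variation of the members was 8.54% in +/+, 5.91% in Cre/+ and 13.2% in Cre/Cre, beside 7.78%, 7.11% and 10.7% for all genes tested. The Gabrr subunits had their lowest value in replicate 1 and their highest in replicate 3 of Cre/Cre, with Gabrr3 at 23.1, 30.3 and 35.9 TPM, Gabrr2 at 92.9, 95.9 and 129.8 and Gabrr1 at 103.7, 120.0 and 134.5.

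**Figure D3:**
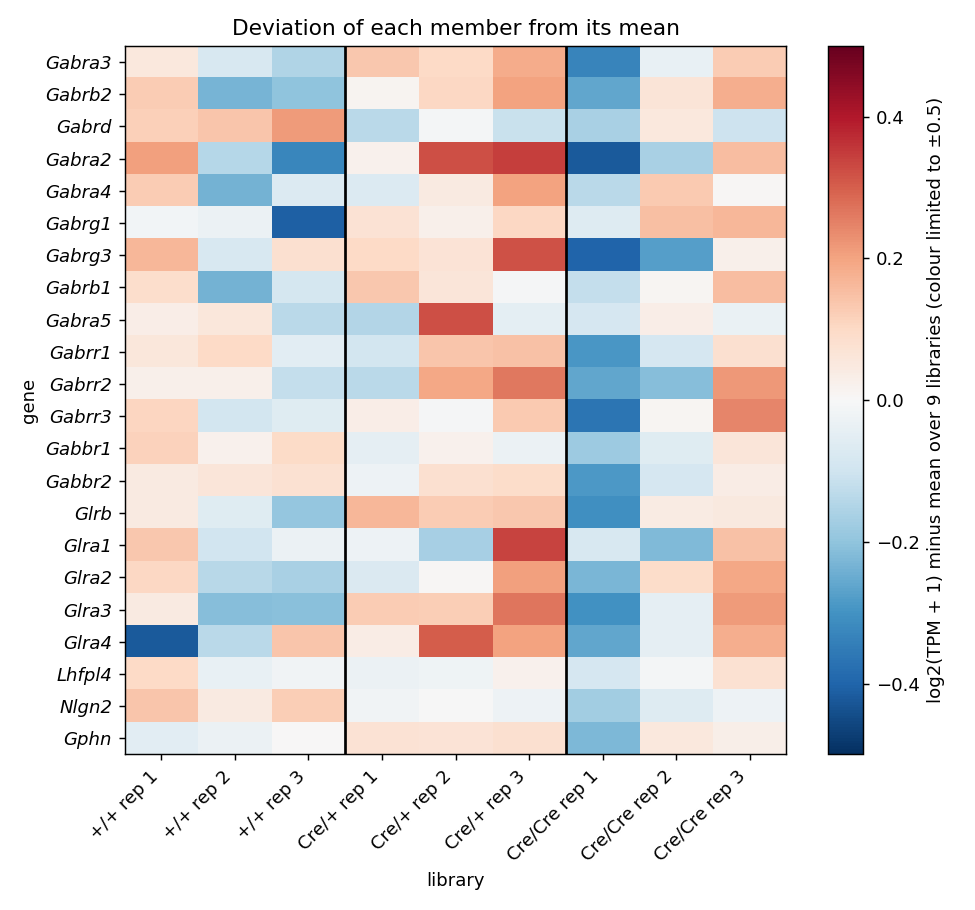
Deviation of each of the 22 members tested (rows) from its mean over the 9 libraries (columns), as log2(TPM + 1), with red above and blue below the mean. Cre/Cre replicate 1 is blue in most rows (median -0.24) and Cre/+ replicate 3 red in most (median 0.14), with Gabrd and Nlgn2 red in +/+.

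Cre/Cre retinas were also compared with Cre/+ retinas, to ask about a second allele beyond the first. By limma 0 of 22 members passed an adjusted p of 0.05 (0.0132% of all genes tested), and the smallest adjusted p was 0.740. A 2-fold change was seen in 0 members and 0.684% of all genes, and the intervals reached from -0.72 (Gabra2) to 0.37 (Gabra5). Unadjusted p was under 0.05 for 3 members, all lower in Cre/Cre (beside 4.2% of all genes tested, and 2.38% higher). These were Gabrg3, with a log2 fold change of -0.38 ± 0.15 (SE, unadjusted p = 0.0261), Gabra2, with -0.37 ± 0.16 (SE, unadjusted p = 0.0388), and Glrb, with -0.21 ± 0.096 (SE, unadjusted p = 0.0405). Gabrg3 was at 6.54, 6.39 and 7.79 TPM in Cre/+, above each Cre/Cre library, while Gabra2 in Cre/Cre, at 14.8, 17.9 and 22.5, overlapped Cre/+. Glra4 had the next largest difference, -0.22 ± 0.18 (SE, unadjusted p = 0.244). Without Cre/Cre replicate 1, 0 members had an unadjusted p under 0.05, and the log2 fold changes were -0.29 for Gabrg3, -0.23 for Gabra2, -0.10 for Glrb and -0.11 for Glra4. Without Cre/Cre replicate 3 that of Glra4 was -0.33. Groups did not overlap in Gabrg3, Glrb and Gphn, 3 members with lower Cre/Cre levels (13.6%, beside 7.23% of all genes tested), and 0 members were above in each library (beside 4.76%). The median log2 fold change of the members was -0.11 beside -0.03 for all genes, and 3 of 22 were above 0 beside 40.8% of all genes. It was -0.04, with 9 of 22 above 0, without Cre/Cre replicate 1 and -0.20 without Cre/Cre replicate 3.

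Ratios of a pair of members within a library do not depend on that library's scale. Gabbr1 to Gabbr2 was 4.03 to 4.75 over the 9 libraries, with 4.44 ± 0.167 (SD, n = 3) in +/+, and Gabrr1 to Gabrr2 was 1.04 to 1.25. The groups overlapped in both ratios for each knock-in genotype against +/+, while Gabbr1 to Gabbr2 was higher in Cre/Cre (4.46 to 4.75) than in Cre/+ (4.03 to 4.33). Glrb to the sum of Glra1 and Glra3 was 1.49 to 1.91 with overlapping groups.

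Nlgn2 to Gphn was 1.65, 1.52 and 1.57 in +/+, 1.35, 1.37 and 1.34 in Cre/+ and 1.49, 1.32 and 1.39 in Cre/Cre, so that the knock-in genotypes lay below +/+. Nlgn2 to Lhfpl4 was 1.01, 1.04 and 1.09 in +/+, 0.993, 0.997 and 0.953 in Cre/+ and 0.924, 0.947 and 0.918 in Cre/Cre, and no pair of genotypes overlapped. Gabrg1 to Gabrg3 was 0.942, 1.13 and 0.729 in +/+, 1.06, 1.05 and 0.915 in Cre/+ and 1.43, 1.53 and 1.21 in Cre/Cre, above both other genotypes. Glra1 to Glra3 was 1.22, 1.24 and 1.30 in +/+ and 1.02, 0.926 and 1.20 in Cre/+, with Cre/Cre across both. These ratios were chosen with the values in view and are a description. Of all 231 ratios among the 22 members, 24.2% did not overlap between Cre/+ and +/+, 16.9% between Cre/Cre and +/+, and 18.2% between Cre/Cre and Cre/+.

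**Figure D4:**
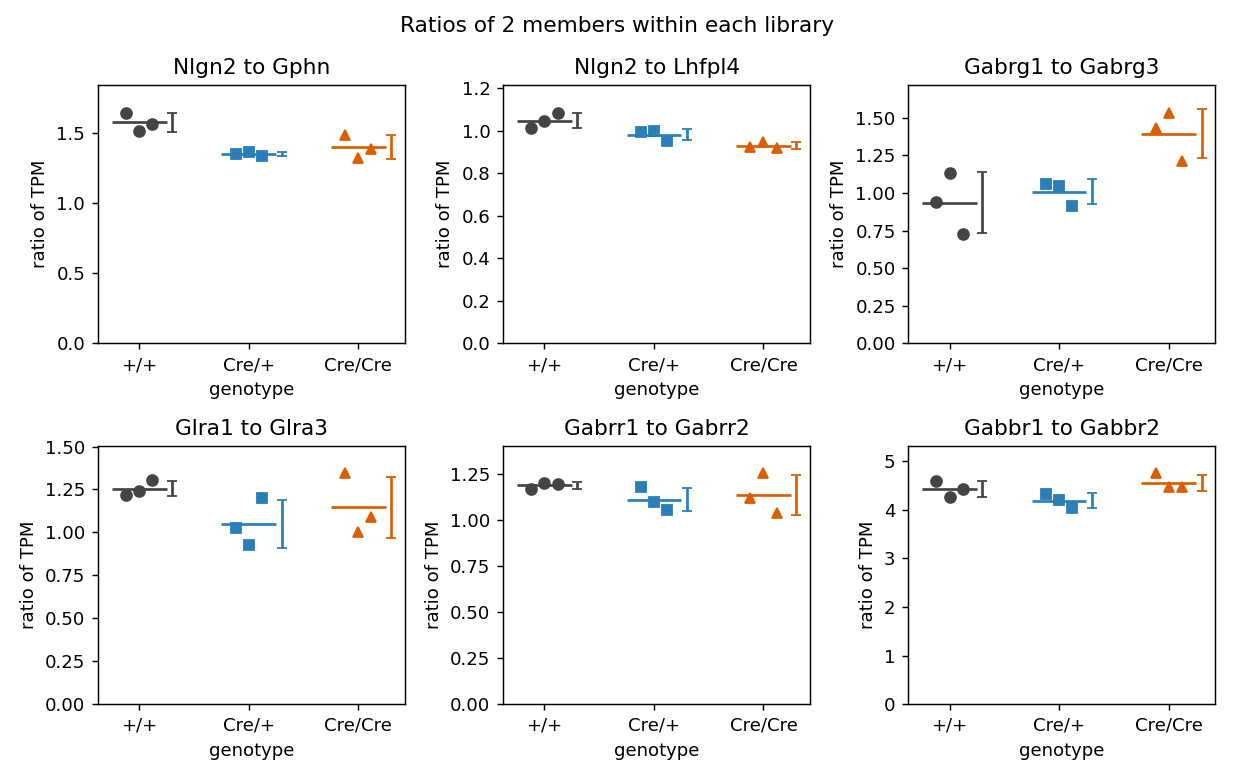
Ratio of the TPM of 2 members within each library (points) by genotype, with the genotype mean (horizontal line) and SD (bar at right), on axes that start at 0. Nlgn2 to Gphn and Nlgn2 to Lhfpl4 are lower in the knock-in genotypes, and Gabrg1 to Gabrg3 is higher in Cre/Cre, while Gabrr1 to Gabrr2 and Gabbr1 to Gabbr2 overlap with +/+ in both.

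Genes for the supply, uptake, chloride gradient and partners of these receptors, a list of 25 that were all tested, likewise gave 0 past an adjusted p of 0.05 in each comparison by limma. Against +/+ in Cre/+, 2 had an unadjusted p under 0.05, both lower, beside 5.82% of all genes tested. They were Slc12a5 (the neuronal chloride exporter KCC2), with a log2 fold change of -0.19 ± 0.073 (SE, unadjusted p = 0.0216), and Slc32a1 (the vesicular transporter of GABA and glycine), with -0.17 ± 0.068 (SE, unadjusted p = 0.0207). In Cre/Cre, 2 were lower at that level, beside 5.39%, Slc32a1 with -0.16 ± 0.068 (SE, unadjusted p = 0.0296) and Gabarap, which binds GABA-A receptor gamma subunits, with -0.20 ± 0.081 (SE, unadjusted p = 0.0272), or -0.12 without Cre/Cre replicate 1. Slc32a1 was at 117.0, 119.2 and 123.0 TPM in +/+, 106.5, 107.3 and 104.0 in Cre/+ and 106.7, 107.6 and 106.2 in Cre/Cre, below each +/+ library in both knock-in genotypes, which share those +/+ libraries. Groups all below +/+ were seen in 10.3% of all genes tested in Cre/+ and in 8.05% in Cre/Cre. After median-ratio scaling the Cre/Cre and +/+ groups of Slc32a1 overlapped. With Xist as a covariate its log2 fold change was -0.14 in Cre/Cre and -0.17 in Cre/+ (unadjusted p = 0.123 and 0.0459 by limma). Without Rn45s it was -0.12 in Cre/Cre and -0.17 in Cre/+ (unadjusted p = 0.0607 and 0.00966 by limma). For Gad2, which makes GABA, the log2 fold change of Cre/Cre against Cre/+ was -0.22 ± 0.088 (SE, unadjusted p = 0.0220), and -0.15 without Cre/Cre replicate 1.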

How the data were processed

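Strand-specific poly(A) libraries were prepared from whole retinas, and the authors used Trimmomatic for trimming, HISAT2 for alignment to mm10 and StringTie for quantification. The deposited tables, 1 per library, give TPM (which sum to 1000000), FPKM and coverage, the signal of mean read depth, as the authors' StringTie wrote them. Tool versions and the annotation are not given in the sources used here. The tables hold no counts, so the authors' DESeq2 comparison was not repeated and counting error per gene cannot be had.

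TPM were summed by gene symbol. Those whose TPM averaged at least 1 (15198 of 25239) were tested with limma 3.58.1 in R 4.3.3 (trend, robust prior) on log2(TPM + 1), with genotype as the only term, 6 residual degrees of freedom and Benjamini-Hochberg adjustment over all genes tested. A fold change on this scale understates the change of low genes. Call limits were an adjusted p of 0.05 and a fold of 2. P-values rest on the spread between libraries within genotypes, pooled over all 9 libraries and combined with the prior. Those of Cre/+ against +/+ therefore depend on the Cre/Cre libraries too.

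The members and lists were chosen with earlier results of these data known. By rule, members with an unadjusted p under 0.05 or among the 3 largest log2 fold changes of a comparison are given with full statistics, and pathway genes are named where an unadjusted p was under 0.05, except 1 that is not reported here. Other members are described by levels, and the genes named for groups that do not overlap were chosen after their values were seen. Alternatives were a pseudocount of 0.1, no filter, median-ratio scaling, FPKM, leaving out Rn45s, Xist as a covariate, replicate number as a block, only the genotypes compared, no robust prior and each library left out. Figures were drawn with matplotlib 3.10.9.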

Additional observations from a re-analysis of the deposited data

How the results depend on the processing

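Under 19 alternatives, 0 members passed an adjusted p of 0.05 in each comparison, and the log2 fold changes of the members given with full statistics kept their direction. The number of members with an unadjusted p under 0.05 did move. In Cre/+ against +/+ it was 3, and became 5 with median-ratio scaling, 1 with FPKM, 5 without Rn45s, 1 with Xist as a covariate, 5 with only the genotypes compared, and 5 with median-ratio scaling without Cre/Cre replicate 1, an alternative chosen after seeing the data. Leaving out each library gave 0 to 6, namely 6 without +/+ replicate 1, 1 without +/+ replicate 2 or 3, 0 without Cre/+ replicate 3, and 5 without Cre/Cre replicate 1 or 3. In Cre/Cre against +/+ it was 2, and became 1 with Xist as a covariate, where neither Nlgn2 nor Gabrd was under 0.05. The number became 0 to 5 on leaving out each library, with 1 without +/+ replicate 1, 0 without +/+ replicate 3, 1 without Cre/Cre replicate 1 and 5 without Cre/Cre replicate 3. In Cre/Cre against Cre/+ it was 3, and became 0 under the added alternative and 0 to 8 on leaving out each library, with 8 without Cre/Cre replicate 3, 0 without Cre/Cre replicate 1 or Cre/+ replicate 3, and 1 without +/+ replicate 2, Cre/+ replicate 2 or Cre/Cre replicate 2. In Cre/+ against +/+, leaving out Cre/Cre libraries changed no log2 fold change of a member, only the SE and degrees of freedom. The SE of Glrb was 0.096 with all 9 libraries and 0.066 without Cre/Cre replicate 1. The cause of the other moves was not tested, and fewer libraries or genes entered some of the fits.

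Replicate numbers are shared between genotypes in the labels. Correlations of deviations between same-numbered libraries were -0.12 to 0.13 over 9 pairs, with 1 over 0.1. Between libraries of unlike number they were -0.19 to 0.26 over 18 pairs, with 2 over 0.1. No shift common to same-numbered libraries was seen, but such correlations cannot exclude that the numbers mark a pairing of the mice. With replicate number as a block, the count in Cre/Cre against Cre/+ was 1 member, and it stayed within 1.5 times in the others.

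Over all genes, 744 were higher and 884 lower at an unadjusted p under 0.05 in Cre/+ against +/+, and 1220 and 1188 with median-ratio scaling. In Cre/Cre against +/+ the numbers were 240 and 819, and 551 and 716 with that scaling, 652 and 546 without Rn45s, and 107 and 1097 with FPKM. In Cre/Cre against Cre/+ they were 362 and 638, and 658 and 624 with median-ratio scaling. No depth limit per gene can be given without counts.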
